A study of Rattus norvegicus with 40 samples.

Results

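The comparison set T cells from the kidney against T cells from the blood of Dahl SS/JrHsdMcwi (SS/MCW, called MCW here) rats, 10 weeks old and fed LS chow, and covered all 42856 genomic regions of the deposited table for that pair of groups, of 630893 table rows in the 15 tables of the series. DNA methylation was measured by reduced representation bisulfite sequencing, in which DNA is cut by MspI at CCGG sites so that CpG-rich fragments are read. Each group held 4 pools of 3 rats, and the same pools gave both the kidney and the blood libraries, so that 12 rats stood behind the comparison. The table gives 1 level per tissue, averaged over the pools, and no value per pool. The 4 other pairs of kidney and blood groups that are used below as a check came from MCW rats fed LS chow and 7 weeks old, MCW rats fed HS chow for 3 weeks, and SS/CRL (Dahl SS/JrHsdMcwiCrl, called CRL here) rats fed LS chow or HS chow for 3 weeks, these last 3 at 10 weeks. The Dahl SS rat is an inbred strain whose blood pressure rises with dietary salt, and all groups carry that background. The labels give no method of cell isolation, and no sort or gate.

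In mammals, cytosines of CpG dinucleotides carry methyl groups over most of the genome, whereas CpG islands at the promoters of many genes are largely free of them. Methylation of a promoter island usually goes with a silent gene, while the bodies of transcribed genes are often methylated, and enhancers within bodies lose methylation in the cell types that use them. Each blood cell lineage and each epithelium therefore has its own pattern of unmethylated regulatory regions. A level measured in a pool is an average over all cells in it, so that a change of the mix of cells and a change within cells cannot be told apart here.

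To show what lies at the promoters where the tissues differed most, the sequence around the start site is printed for 5 of the genes named below, from the RefSeq promoter table of assembly GRCr8. Cd37, Fgd3 and Cybb had a start-site region higher in kidney, and Slc22a8 and Vps37d had one lower in kidney. Capitals mark CpG dinucleotides, the sequence runs from 250 bases before to 50 bases after the annotated start, and the letters are given 5′ to 3′ on the gene's strand. In GRCr8 the windows are chr1:104860735-104861034, minus strand (Cd37), chr17:15542984-15543283, plus strand (Fgd3), chrX:16065016-16065315, minus strand (Cybb), chr1:214927034-214927333, plus strand (Slc22a8), and chr12:27245505-27245804, plus strand (Vps37d). The methylation levels are placed on the older build rn5, so that positions do not tell whether a measured region lies inside its window. The CpG numbers tell it in part. The measured regions of Cd37 and Cybb hold 5 and 6 CpGs, more than the 3 in each window, so that neither can lie wholly inside. The 5 CpGs of the Slc22a8 window are spread wider than its region of 5 CpGs is long. For Fgd3 and Vps37d it cannot be told.
Cd37: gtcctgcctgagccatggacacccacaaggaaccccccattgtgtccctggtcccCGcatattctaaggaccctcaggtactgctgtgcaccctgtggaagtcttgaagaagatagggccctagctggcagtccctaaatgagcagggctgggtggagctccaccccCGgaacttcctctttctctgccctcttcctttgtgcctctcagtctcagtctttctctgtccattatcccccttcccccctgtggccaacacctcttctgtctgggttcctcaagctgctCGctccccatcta
Fgd3: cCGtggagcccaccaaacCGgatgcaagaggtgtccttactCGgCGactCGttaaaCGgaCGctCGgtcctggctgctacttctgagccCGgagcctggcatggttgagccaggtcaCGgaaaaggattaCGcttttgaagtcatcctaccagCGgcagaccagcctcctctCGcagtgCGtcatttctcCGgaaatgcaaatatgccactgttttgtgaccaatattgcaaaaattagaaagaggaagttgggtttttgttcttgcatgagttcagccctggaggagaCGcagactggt
Cybb: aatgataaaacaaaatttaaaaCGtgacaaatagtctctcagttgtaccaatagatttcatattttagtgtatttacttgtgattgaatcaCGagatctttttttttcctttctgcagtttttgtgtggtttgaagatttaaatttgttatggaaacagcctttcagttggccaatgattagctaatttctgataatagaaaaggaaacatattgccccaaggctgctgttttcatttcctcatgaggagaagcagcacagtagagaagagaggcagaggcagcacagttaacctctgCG
Slc22a8: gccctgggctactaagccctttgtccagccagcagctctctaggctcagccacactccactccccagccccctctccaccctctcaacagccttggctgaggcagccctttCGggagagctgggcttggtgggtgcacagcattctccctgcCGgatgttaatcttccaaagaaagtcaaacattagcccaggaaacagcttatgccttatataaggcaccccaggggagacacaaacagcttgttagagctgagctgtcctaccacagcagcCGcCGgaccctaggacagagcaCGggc
Vps37d: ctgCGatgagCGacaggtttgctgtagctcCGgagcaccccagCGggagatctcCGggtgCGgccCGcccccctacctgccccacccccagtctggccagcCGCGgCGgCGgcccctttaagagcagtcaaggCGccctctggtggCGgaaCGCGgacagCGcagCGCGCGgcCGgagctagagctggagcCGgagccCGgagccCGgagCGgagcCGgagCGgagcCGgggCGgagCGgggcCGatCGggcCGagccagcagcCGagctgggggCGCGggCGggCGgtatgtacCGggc
The windows of Cd37 and Cybb hold 3 CpGs each and that of Slc22a8 holds 5, whereas Fgd3 has 16 and Vps37d has 38. The Vps37d window is dense in CpGs: 4.53% of the 27457 promoters of the RefSeq table hold as many CpGs. The MspI site CCGG, which reads the same on both strands and always holds a CpG, is found in the windows of Cd37, Fgd3, Slc22a8 and Vps37d. It is not in that of Cybb. The site is in 53.0% of all promoters of this length and in 86.8% of those of genes with a start-site region in the comparison.

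Depth is unknown for every library, since the deposited tables hold levels and p-values but no read counts, and no interval can be put on a level or on a difference. Both of these conditions had to hold for a call: an adjusted Mann-Whitney p-value under 0.05 in the authors' deposited table, and a difference there, kidney minus blood, of 10 percentage points or more. The sources used here do not state what that p-value counts as an observation. Whether it treats the CpGs of a region as independent cannot be told, so that it is taken to speak of these pools only. With 65.8% of the regions holding the minimum of 5 CpGs, and their median length at 93 bp, the smallest adjusted p in the authors' deposited table was 5.33e-07 for a region of 5 CpGs and 2.65e-12 over the whole table. The levels of the same groups could be read again from their other tables at regions with identical coordinates. The kidney level was equal within 0.01 percentage points at 66.4% to 75% of these regions, and the blood level at 86.6% to 88.0%. At the 95th percentile the 2 readings of a level differed by at most 1.58 points in kidney and 0.452 points in blood. The largest gap was 16.2 points in kidney and 15.1 points in blood. Both readings come from the same libraries, so that they say nothing of the error of a level. Of the 17 T cell markers looked for, 7 had a region, and Cd3e, Cd3d, Cd3g and Cd4 had none, so that the label could be checked only in part. The 6 TSS regions of T cell markers had a median of 16.9% in kidney and 5.99% in blood. Of the 7 genes 5 had a region called higher in kidney and 3 one called lower, against 5.38% and 42.3% of all genes. Kidney epithelial markers had a region called lower in 12 of 13 genes, B cell markers in 3 of 3 and myeloid markers in 2 of 4. Of the natural killer markers 0 had a region. The 11 TSS regions of genes shared by leukocytes had a median of 41.6% in kidney and 8.15% in blood. These values go against calling the kidney libraries T cells without qualification, and the name is used below as the label gives it.

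The kidney T cell preparations carried less methylation than the blood T cells over most of the regions measured. Markers of cell types moved too, and their part in the result was not tested. Of 7 T cell markers with a region 5 had one called higher and 3 one called lower. Of 13 kidney epithelial markers 12 had one called lower. Over all genes with a region, 42.3% had one called lower and 5.38% one called higher. The mean level was 25.9% in kidney and 35.9% in blood, a mean difference of -10.05 percentage points, and the median level was 6.82% in kidney and 14.1% in blood. In the authors' column the difference was below 0 at 80% of the regions and above 0 at 14.0%. By the call rule, 12006 regions were lower in kidney, or 28.0% of all, and 989 were higher, or 2.31% of all, so that 92.4% of the calls were in the lower direction.

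The 2 directions had medians far apart in blood. Regions called lower had a median level of 33.6% in kidney (quartiles 13.6% and 57.7%) and 75.5% in blood (quartiles 54.8% and 84.5%). Regions called higher had a median of 32.4% in kidney (quartiles 22.8% and 46.3%) and 7.12% in blood (quartiles 2.01% and 18.5%). Both sets thus ended at intermediate levels in kidney. Of the 989 higher regions 569, or 57.5%, were under 10% in blood, against 47.1% of all regions. The share called higher was 2.82% of the regions under 10% in blood and 8.27% of those at 10 to 20%. A complete switch was rare in either direction: 2260 regions were lower by 50 points or more and 108 by 80 points or more, whereas 16 were higher by 50 points or more and 0 by 80. In kidney 2114 of the lower regions were under 10%, and 107 of the higher regions reached 60%. Just inside the limit of 10 points, 624 lower and 55 higher regions had a difference of 10 to 11 points.

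The share of regions called lower did not grow steadily with the level in blood. It was 28.6% among regions at 10 to 20% in blood, 69.3% at 20 to 30%, 68.1% at 30 to 40%, 67.8% at 40 to 50%, 60% at 50 to 60%, and between 50.2% and 55.7% in the 4 bins from 60 to 100%. Regions of intermediate methylation in blood were therefore called lower more often than the fully methylated ones. The 16182 regions at 60% or more in blood were spread over the whole scale in kidney. Of them 3848 lay at 70 to 80% in kidney, while 1475, or 9.12%, were under 20%. Within the bin of 70 to 80% in blood the kidney levels had 2 peaks, since 415 regions lay at 10 to 20% in kidney against 329 at 20 to 30% and 1853 at 60 to 70%.

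**Figure D1:**
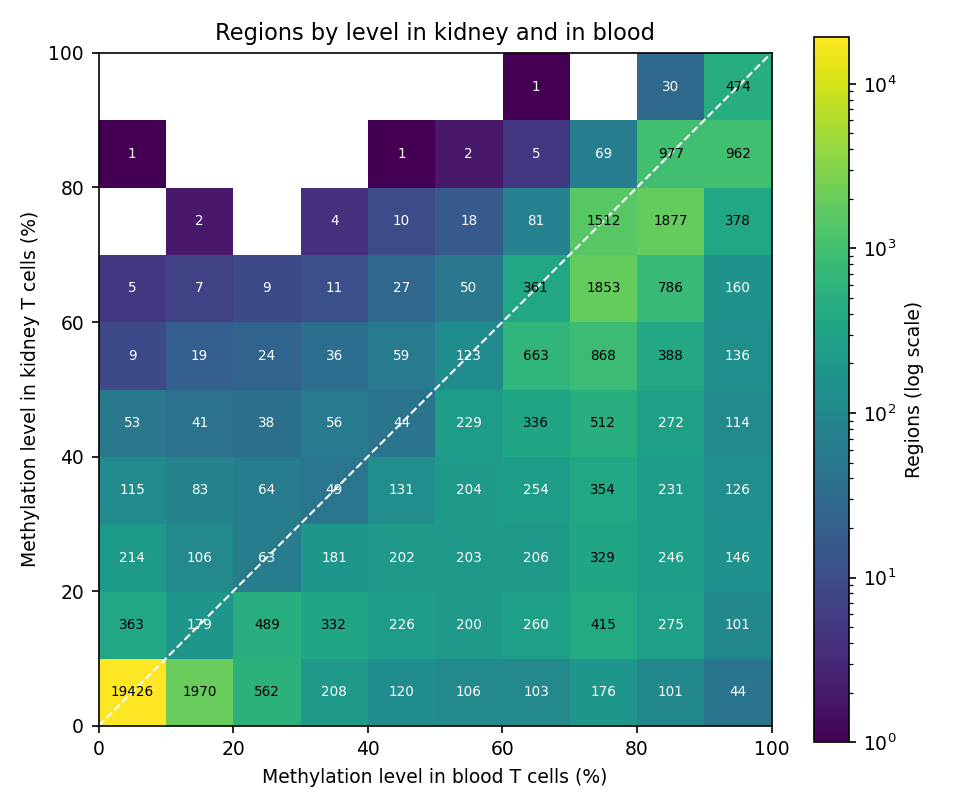
Number of regions in each cell of 10 by 10 percentage points of methylation level in kidney T cells (vertical axis, %) and in blood T cells (horizontal axis, %), with a log colour scale and the dashed line at equal levels. Most regions lie on or below the line, the corner under 10% in both tissues holds 19426 regions, and the regions at 70 to 80% in blood reach down to the lowest kidney levels.

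Gene bodies had the highest share of their regions called and start sites the lowest. The table classes each region as TSS (14249 regions near a transcription start site), Intragenic (8612, gene bodies) or Intergenic (19995), with limits that the sources used here do not state. TSS regions averaged 5.04% in kidney and 9.16% in blood, Intragenic regions 40.3% in kidney and 56.1% in blood, and Intergenic regions 34.5% in kidney and 46.3% in blood. Among TSS regions 1632 were called lower, or 11.5% (Wilson 95% interval 10.9 to 12.0), and 169 higher, or 1.19% (1.02 to 1.38). In gene bodies 3692 were lower, or 42.9% (41.8 to 43.9), and 330 higher, or 3.83% (3.45 to 4.26). Between genes 6682 were lower, or 33.4% (32.8 to 34.1), and 490 higher, or 2.45% (2.25 to 2.67). These intervals cover counting error only and treat regions as independent. The low share at start sites went with their starting level, since 81.7% of TSS regions were under 10% in blood and 5.66% were at 60% or more. Among those at 60% or more in blood TSS regions had the highest share: 571 of 806 TSS regions were called lower, or 70.8%, with a median of 51.2% in kidney, against 56.1% of Intragenic and 50.2% of Intergenic regions. Among regions under 10% in blood, 1.07% of TSS, 9.07% of Intragenic and 4.15% of Intergenic regions were called higher.

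**Figure D2:**
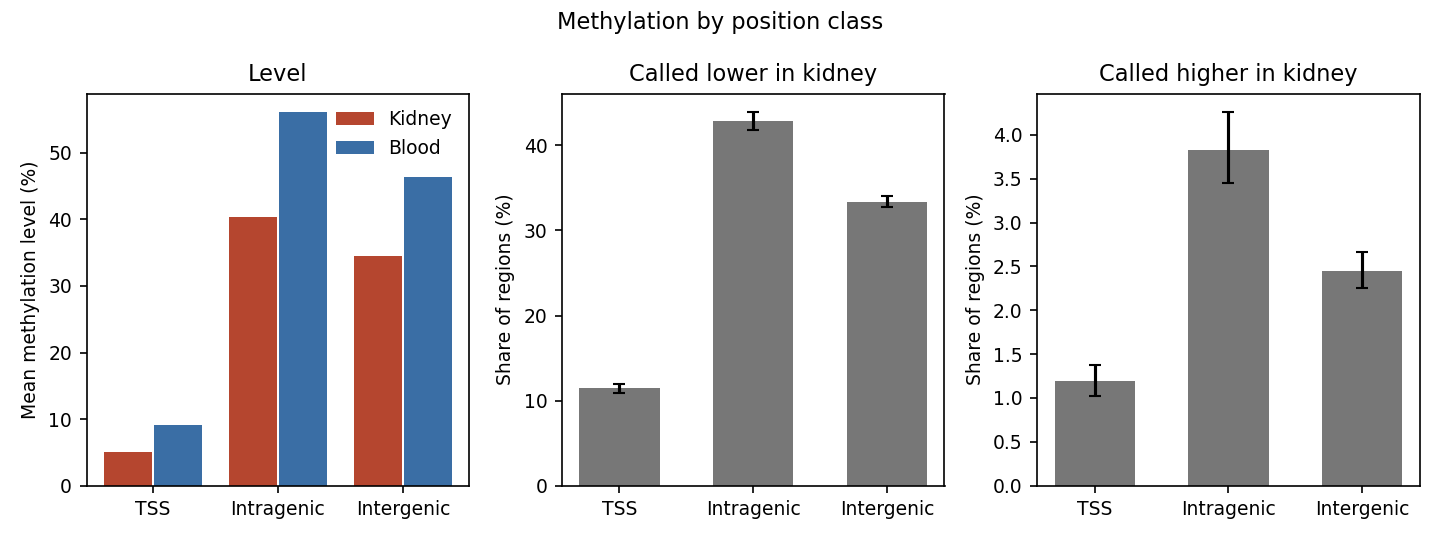
Left, mean methylation level (%) in kidney (red) and blood (blue) by position class; middle and right, the share of regions (%) called lower and higher in kidney, with Wilson 95% intervals as bars. Kidney stands below blood in each class, and gene bodies have the highest share of calls in both directions, 42.9% lower and 3.83% higher.

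Calls of 1 direction lay next to each other. Of 2040 lower regions with a neighbour within 1000 bp downstream, the neighbour was lower in 857, or 42.0%, and higher in 19. Of 169 higher regions with such a neighbour, it was higher in 51, or 30.2%, and lower in 13. After a region with no call the next was lower in 8.21% and higher in 0.749%. The longest run of lower regions in a gene with no copy elsewhere was in Snx20, a sorting nexin of leukocytes, where 10 neighbouring regions with 97 CpGs averaged 4.87% in kidney and 27.5% in blood. At Mn1, a transcriptional coregulator, 8 regions averaged 12.5% in kidney and 45.4% in blood. The longest run of higher regions had no gene (chr5:169424475-169425312), with 5 regions at a mean of 29.9% in kidney and 2.31% in blood. Camta1, a calcium-responsive transcription factor, had the most lower calls of any protein-coding gene with single-copy values, 33 of its 48 regions.

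The start sites with the largest gains in kidney included those of genes of T cells and other blood cells. The largest gain was at Kcnn4, the calcium-activated potassium channel that sustains calcium entry in activated T cells, whose TSS region (chr1:82495640-82495728, 7 CpGs) was at 63.0% in kidney and 5.00% in blood, where the authors' deposited table gives 2.51e-09 as the adjusted p. Fgd3, a guanine nucleotide exchange factor, had 12 CpGs at 43.9% in kidney and 0.776% in blood (chr17:17807222-17807366). Dok2, an adaptor that dampens tyrosine kinase signals in blood cells, stood at 62.4% in kidney and 19.4% in blood (chr15:56176058-56176330). Cybb, the catalytic subunit of the phagocyte NADPH oxidase, stood at 46.0% in kidney and 3.47% in blood (chrX:15357824-15357922), and Cd37, a leukocyte tetraspanin, at 42.7% in kidney and 1.97% in blood (chr1:102300452-102300552). Etv3, an ETS-family repressor, was at 63.0% in kidney and 22.0% in blood. Not all were such genes: a region shared by Pla2g2c, a secreted phospholipase, and Ubxn10 was at 51.4% in kidney and 0.962% in blood, and Mab21l2, a gene of eye development, at 41.6% in kidney and 1.07% in blood over 19 CpGs. These were the largest TSS differences in this direction and were chosen by their size, so that they carry no further test.

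In gene bodies the largest gain was in Dgkz (chr3:87554341-87554450), the diacylglycerol kinase that limits T cell receptor signals, at 67.7% in kidney and 12.4% in blood. Slco3a1, an organic anion transporter, was at 62.1% in kidney and 14.7% in blood, and Espn, an actin-bundling protein, at 58.8% in kidney and 12.1% in blood. Stom, a membrane protein abundant in red cells, was at 46.3% in kidney and 2.60% in blood. The largest gains of all lay outside genes. One region of 5 CpGs (chr4:165652586-165652749) was at 81.6% in kidney and 9.10% in blood, and one of 8 CpGs (chr11:33815685-33815843) at 62.7% in kidney and 0.432% in blood.

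Losses reached almost the whole scale. A body region of Cd37 (chr1:102296838-102296881, 5 CpGs) was at 4.57% in kidney and 98.7% in blood, a difference of -94.1 points in the authors' deposited table, and Lama1, a laminin chain of basement membranes, was at 2.60% in kidney and 96.4% in blood (chr9:115444002-115444190, 10 CpGs). Galnt2, which starts mucin-type O-glycosylation, was at 5.62% in kidney and 96.4% in blood. Regulators of blood cells were among the largest losses too. Runx1, which controls how blood stem cells form and mature, stood at 6.17% in kidney and 93.3% in blood over 17 CpGs (chr11:36371712-36371968), Jak3, the kinase of the common gamma chain receptors, at 6.82% in kidney and 95.8% in blood (chr16:19978710-19978779), and Map3k14, the kinase of the non-canonical NF-kappa B pathway, at 2.87% in kidney and 90.8% in blood (chr10:91096856-91096969). Nuak2, an AMPK-related kinase, was at 6.18% in kidney and 98.3% in blood. Epb41l5 was at 4.12% in kidney and 95.7% in blood, Rasa3, which switches off Ras-family proteins, at 7.01% in kidney and 96.4% in blood, and Macrod1, which removes ADP-ribose, at 5.50% in kidney and 94.1% in blood.

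At start sites the largest losses were at Vps37d, a subunit of the ESCRT-I sorting complex (5.35% in kidney and 92.0% in blood, 11 CpGs, chr12:26652594-26652750), and at Slc22a8, the organic anion transporter of the proximal tubule (9.00% in kidney and 92.5% in blood, chr1:231737074-231737181). Emid1 was at 12.0% in kidney and 93.7% in blood, Pim3, a serine/threonine kinase, at 9.53% in kidney and 90.3% in blood, and Psmb10, a subunit of the immunoproteasome, at 6.86% in kidney and 87.4% in blood. Kdf1, a gene of epidermal differentiation, was at 6.49% in kidney and 91.2% in blood, with every value repeated at a second position, so that it counts as 1 measurement. Over the RefSeq windows, TSS genes with a lower call had a median of 18.0 CpGs (989 matched of 1316), those with a higher call 14.0 (96 of 134), and those with no call 23.0 (3535 of 4496). The letters TGTGGT, the core bound by RUNX factors, were found on either strand in 12.7% of the promoters called lower, 17.7% of those called higher and 9.73% of those with no call, against 16.9% of all promoters. The sets differ in CpG number, whose part in these shares was not tested, and a match is a description of letters and no binding site.

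Some genes were called in both directions. After updating names, 7967 genes had a region, of which 3371 had one called lower (42.3%) and 429 one called higher (5.38%), and 207 had both, or 2.60%. Of the genes with a higher region, 48.3% also had a lower one, near the 42.3% of all genes. Among 1926 genes with both TSS and Intragenic regions, 30 combined a higher TSS region with a lower body region, and 40 the reverse. Calls in the same direction were more common, since 290 genes had a lower region of both kinds and 7 a higher region of both kinds. Cd37 was the extreme case, since its start-site region at 42.7% in kidney and 1.97% in blood lies on the same gene as the body region at 4.57% in kidney and 98.7% in blood, and its second TSS region was called lower. At Kcnn4 the body region was at 13.3% in kidney and 75.1% in blood. Foxo3, a transcription factor of lymphocyte quiescence, had 18.7% in kidney and 1.65% in blood at the start site, and 2.98% in kidney and 89.1% in blood in the body. Itgal, the alpha chain of the integrin LFA-1, had 36.9% in kidney and 7.03% in blood at the start site, and 44.1% in kidney and 78.2% in blood in the body. Dnmt3a, a methyltransferase that sets new methylation, had 2 of 3 TSS regions higher, at 27.4% in kidney and 0.752% in blood and at 18.3% in kidney and 3.81% in blood, and a lower one at 44.2% in kidney and 78.5% in blood in the body. Map4k1, a kinase that restrains T cell receptor signals, had 21.1% in kidney and 0% in blood at the start site, where no read depth is known behind the 0, and 45.6% in kidney and 83.7% in blood in the body.

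**Figure D3:**
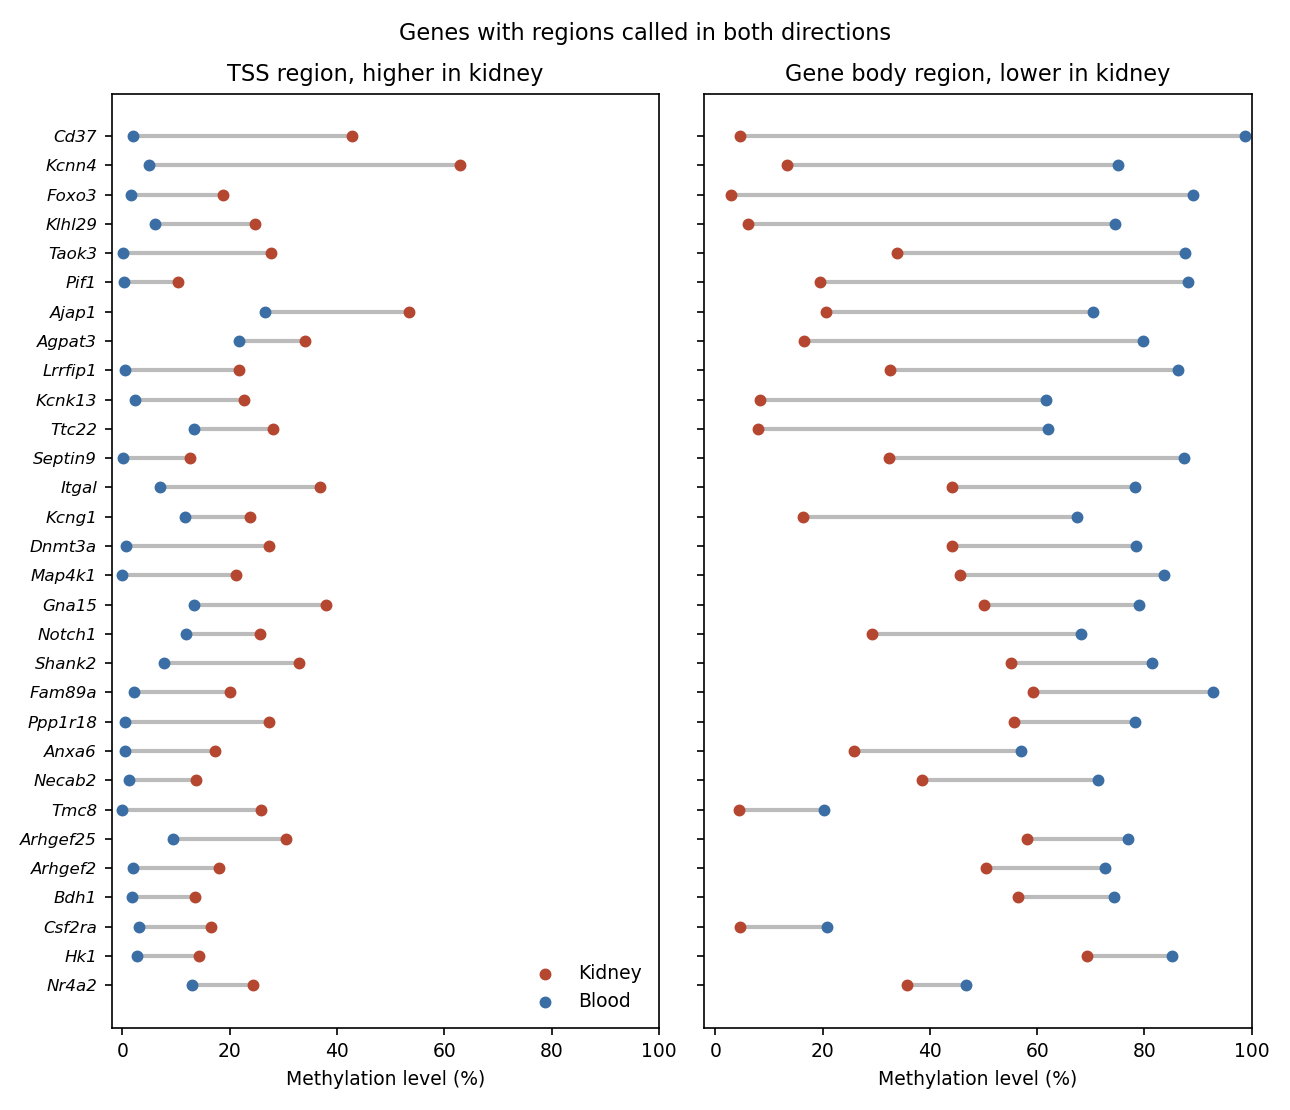
Methylation level (%) of kidney (red) and blood (blue) T cells for the 30 genes with a TSS region called higher (left) and an Intragenic region called lower (right), 1 region of each kind a gene. Kidney lies right of blood in the left panel and left of it in the right panel because of how the genes were chosen, and the blood levels on the left stay under 30%.

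The genes of T cells, of other leukocytes and of kidney were read from 25 lists, against the 42.3% of all genes with a lower region and the 5.38% with a higher one. Genes with many regions have more chances of a call, and no test was made of a list. Of the T cell receptor complex and its proximal signalling, 18 of 39 genes had a region, of which 9 had a lower (50%) and 8 a higher one (44.4%), with a median difference of -3.19 points over 57 regions, against -2.35 over all regions with a gene. By regions, 36.8% were lower and 17.5% higher, against 23.3% and 2.18% of all regions with a gene. Lat, the membrane adaptor, had a TSS region of 9 CpGs at 33.7% in kidney and 0.0403% in blood. Cd247, the zeta chain, was at 52.8% in kidney and 25.2% in blood in the larger of its 2 higher regions, of 4 in all, and Kcna3, a potassium channel, at 33.2% in kidney and 16.0% in blood. Ubash3a, a negative regulator of receptor signals, was at 37.3% in kidney and 7.72% in blood. Fyn, a Src-family kinase, moved the other way in 6 of its 11 regions, down to 16.7% in kidney against 98.3% in blood. Vav1, a signalling protein downstream of the T cell receptor, was at 32.2% in kidney and 85.2% in blood, and Prkcq, protein kinase C theta, at 43.5% in kidney and 83.4% in blood. The co-receptor gene Cd8a, a marker of cytotoxic T cells, had 3 TSS regions. One was higher, at 64.2% in kidney and 40.3% in blood, and the others, at 5.27% in kidney against 13.6% in blood and 18.7% in kidney against 11.9% in blood, had no call.

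T cell lineage transcription factors had a region in 23 of 31 genes, with 12 lower (52.2%) and 4 higher (17.4%). By regions, 24.4% of their 86 were lower and 4.65% higher, against 23.3% and 2.18% of all regions with a gene. The share lower was thus near the background. Runx3, a factor of cytotoxic T cells, had 5 of 13 regions lower, with one at 13.4% in kidney and 87.0% in blood. Prdm1, which drives effector differentiation, was at 29.8% in kidney and 88.1% in blood, and Ahr, the aryl hydrocarbon receptor, at 16.2% in kidney and 69.9% in blood. Klf2, which keeps T cells in circulation, was the largest gain of the list, at 30.2% in kidney and 2.10% in blood over 13 TSS CpGs. Tbx21, the factor of type 1 helper cells, was called lower by a small margin, at 59.9% in kidney and 71.4% in blood. Cytokine receptors and their JAK-STAT signalling had 9 lower (47.4%) and 2 higher (10.5%) of 19 genes. By regions, 24.5% of their 49 were lower, near the background too, and 6.12% higher. Here Jak3 had all 4 of its regions lower. Il6st, the shared gp130 chain, was at 11.4% in kidney and 63.1% in blood, and Il12rb1, a chain of the interleukin 12 receptor, at 38.2% in kidney and 82.8% in blood. Socs3, which restrains STAT3, was higher at the start site, at 36.5% in kidney and 5.73% in blood.

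Effector genes were thinly covered. Cytokines and cytotoxic effectors had a region in 7 of 28 genes, with 2 lower and 1 higher, and Ifng, Il17a and Foxp3 had none. Il4, the cytokine of type 2 helper cells, was at 15.5% in kidney and 76.5% in blood (5 TSS CpGs), and Tgfb1 at 22.0% in kidney and 83.6% in blood. Lta, lymphotoxin alpha, was the higher one, at 42.0% in kidney and 2.84% in blood over 10 TSS CpGs. Tnf, its neighbour, was at 11.3% in kidney and 4.88% in blood with no call. Costimulation and checkpoint genes had 2 lower and 1 higher of 9, with Tnfrsf9, a costimulatory receptor, at 33.4% in kidney and 81.5% in blood. Trafficking and tissue residency genes had 3 lower and 2 higher of 12. Itgae, the CD103 chain of tissue-resident T cells, was at 11.1% in kidney and 42.4% in blood, and S1pr4, a receptor of the lipid that guides lymphocyte exit, at 38.1% in kidney and 17.9% in blood. Cxcr4, S1pr1 and Itgb1 had no call.

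Among genes that leukocytes of all lineages share, 7 of 15 had a higher region (46.7%) and 8 a lower one (53.3%), and of the 15 only Myo1g had neither. By regions, 28.0% of their 25 were higher and 52.0% lower. The median of their TSS regions, given above, compares with 0.620% in kidney and 1.53% in blood over all TSS regions. Nckap1l, a subunit of the actin-regulating WAVE complex of blood cells, was at 36.3% in kidney and 0.208% in blood. Ptpn6, the phosphatase SHP-1, was at 42.5% in kidney and 0.0801% in blood, and Rhoh, a signalling protein of blood cells, at 41.4% in kidney and 8.15% in blood. Arhgap25 was at 25.3% in kidney and 0% in blood. In the same list Wipf1, a partner of the actin regulator WASP, was lower at 7.90% in kidney and 73.1% in blood, and Dok3 at 13.3% in kidney and 85.0% in blood. Among B cell markers 3 of 5 genes had a lower and 2 a higher region, with Pax5 called both ways. Myeloid markers had 7 lower and 1 higher of 11, among them Itgam, the CD11b chain, at 13.0% in kidney and 77.3% in blood. Of the natural killer markers only 2 had a region, of which 1 was lower, Fcgr3a.

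Among genes of the kidney's own cells, the share with a lower region exceeded 42.3% in each of 4 lists, but by regions 2 of the 4 were under the background. Of all 22861 regions with a gene, 23.3% were called lower and 2.18% higher. The share of regions called lower was 46.5% (33 of 71) for the proximal tubule list and 43.9% (25 of 57) for the distal nephron list. It was 17.5% (18 of 103) for the glomerular list and 13.3% (28 of 211) for the nephron developmental factors, which have many regions a gene. Of the proximal tubule list 23 of 26 genes had a lower region (88.5%) and 1 a higher one (3.85%). Slc22a8, named above, and Slc22a6, both organic anion transporters, lie near each other, and the Slc22a6 start site was at 14.0% in kidney and 86.2% in blood. Slc34a1, the sodium-phosphate transporter, was at 13.9% in kidney and 85.6% in blood. Cubn, a receptor of protein uptake, was at 9.59% in kidney and 74.3% in blood, Pck1, the gluconeogenic enzyme, at 23.3% in kidney and 93.8% in blood, and Slc3a1, a chain of the cystine transporter, at 21.8% in kidney and 99.1% in blood. Cyp27b1, Gatm and Slc5a2 had no call, with Slc5a2 at 69.1% in kidney and 69.3% in blood. Of the distal nephron and collecting duct 16 of 27 were lower (59.3%) and 2 higher (7.41%), with Epcam at 14.1% in kidney and 81.1% in blood, Scnn1a, a subunit of the epithelial sodium channel, at 13.5% in kidney and 64.9% in blood, and Kcnj10, a potassium channel, higher at 71.6% in kidney and 35.5% in blood. Glomerular and podocyte genes had 11 lower (68.8%) and 2 higher of 16. Synpo, an actin organiser of podocytes, was at 19.3% in kidney and 92.4% in blood. Nephron developmental factors had 15 lower (53.6%) and 1 higher of 28, and Sall1, a zinc finger factor of kidney development, was at 20.1% in kidney and 87.5% in blood.

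Vascular and stromal genes had a lower region more often than all genes, and by regions their shares, 26.6% (25 of 94) for endothelium and 23.5% (16 of 68) for mural cells and stroma, were near the 23.3% of regions with a gene. The endothelial list had 17 of 23 lower (73.9%) and 3 higher (13.0%). Tie1, an endothelial receptor kinase, was at 17.1% in kidney and 93.7% in blood, Flt1, a receptor of VEGF, at 9.81% in kidney and 76.8% in blood, and Robo4, a guidance receptor of endothelium, at 18.3% in kidney and 93.1% in blood. Mural cell and stroma genes had 8 lower (53.3%) and 2 higher of 15, with Acta2, smooth muscle actin, at 17.2% in kidney and 87.9% in blood. Erythroid and platelet genes had 5 lower and 1 higher of 8, led by Zfpm1, a cofactor of GATA1, at 13.5% in kidney and 70.5% in blood over 73 CpGs. Over the shorter marker sets of single cell types, 12 of 13 kidney epithelial markers with a region, of 16 sought, had one called lower. So had 5 of 7 endothelial and stromal markers, of 11 sought, against 42.3% of all genes. The TSS regions of the epithelial set lay between 0.0911% and 57.7% in kidney and between 0.733% and 92.5% in blood. Of the T cell set 3 of 7 were lower and 5 higher, with TSS regions between 0.625% and 64.2% in kidney and 0.0403% and 40.3% in blood. The part that cells other than T cells had in any of these differences, those of leukocyte and T cell genes included, was not tested.

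Imprinted genes, which carry methylation on 1 parental allele at their control regions, had a lower region in 23 of 30 genes (76.7%) and a higher one in 1 (3.33%), Kcnq1, which also had lower regions. Several start-site regions near the level of 1 methylated allele in blood were well below it in kidney. Snrpn was at 21.0% in kidney and 42.8% in blood, Plagl1 at 22.2% in kidney and 47.6% in blood, and Meg3, a maternally expressed RNA, at 25.7% in kidney and 47.0% in blood. Gnas, which encodes a G protein alpha subunit, had 10 of 16 regions lower, the largest at 12.5% in kidney and 45.2% in blood over 23 CpGs. Igf2r, the receptor that clears IGF2, had 7 of 8 lower, with 42 CpGs at 13.0% in kidney and 37.9% in blood. Over the 30 TSS regions of imprinted genes at 30 to 60% in blood, the median was 21.0% in kidney and 42.4% in blood and 25 were called lower (83.3%). Over all 534 TSS regions in this range the share was 83.9%, and their median was 16.6% in kidney and 43.2% in blood. Regions of 1 imprinted gene lie close together and are no independent measurements.

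Homeobox genes were under the background for losses and above it for gains, with 19 of 62 lower (30.6%) and 8 higher (12.9%), and 8.14% of their 381 regions lower and 3.41% higher. Of the 8 genes with a higher call, Hoxd3, Hoxd4, Hoxd9 and Hoxd12 lie in the Hoxd cluster, and Hoxa2, Hoxb9, Hoxc4 and Hoxc5 in the other Hox clusters. The Hoxd cluster was mixed, since Hoxd1, Hoxd10 and another region of Hoxd4 were called lower. Hoxd12 had 4 of 5 regions higher, led by 53.4% in kidney and 22.3% in blood, and Hoxd3 had 3 of 4, led by 41.6% in kidney and 13.8% in blood. Hoxd9 was at 42.4% in kidney and 21.9% in blood. In the Hoxb cluster Hoxb3 was lower, at 12.0% in kidney and 64.0% in blood, and Hoxb5 at 18.4% in kidney and 67.8% in blood, whereas Hoxb9 was higher, at 27.6% in kidney and 17.1% in blood. Hox genes set position along the body axis during development, and their methylation differs between tissues.

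The remaining lists cover DNA methylation, metabolism, salt handling, oxidants, inflammation and housekeeping. Of the DNA methylation machinery 3 of 10 genes were lower (30%) and 2 higher (20%). Dnmt1, which copies methylation at replication, had 2 regions with no call, at 82.8% and 68.8% in kidney against 89.4% and 76.1% in blood, and Dnmt3b was at 0.262% in kidney and 1.91% in blood. Dnmt3l, a cofactor of new methylation in germ cells, was higher, at 31.4% in kidney and 5.71% in blood over 14 CpGs, and Gadd45b was lower, at 10.1% in kidney and 58.7% in blood. Tet1, Tet2 and Tet3 had no region. One-carbon metabolism had 7 lower (35.0%) and 0 higher of 20, with Cbs, the first enzyme of transsulfuration, at 14.5% in kidney and 79.4% in blood. Salt transport, renin-angiotensin and pressor genes had 10 lower (43.5%) and 2 higher (8.70%) of 23. Ace, which makes angiotensin II, was at 8.78% in kidney and 82.3% in blood, Stk39, the kinase SPAK that activates sodium-chloride transport, at 20.1% in kidney and 96.2% in blood, and Nos3, endothelial nitric oxide synthase, was called both ways, with 1 body region at 66.6% in kidney and 24.7% in blood. Oxidant and antioxidant genes had 7 lower (41.2%) and 1 higher (5.88%) of 17, with Ncf1, a cytosolic subunit of the phagocyte oxidase, at 1.83% in kidney and 33.6% in blood. NF-kappa B, Toll and inflammasome genes had 9 lower (47.4%) and 0 higher of 19, among them Nfkb1 at 23.6% in kidney and 89.1% in blood. By regions, 25.9% of the 54 of this list were lower, near the 23.3% of all regions with a gene. Housekeeping genes had 4 lower (28.6%) and 0 higher of 14, and their 17 TSS regions had a median of 0.0464% in kidney and 2.5e-05% in blood.

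**Figure D4:**
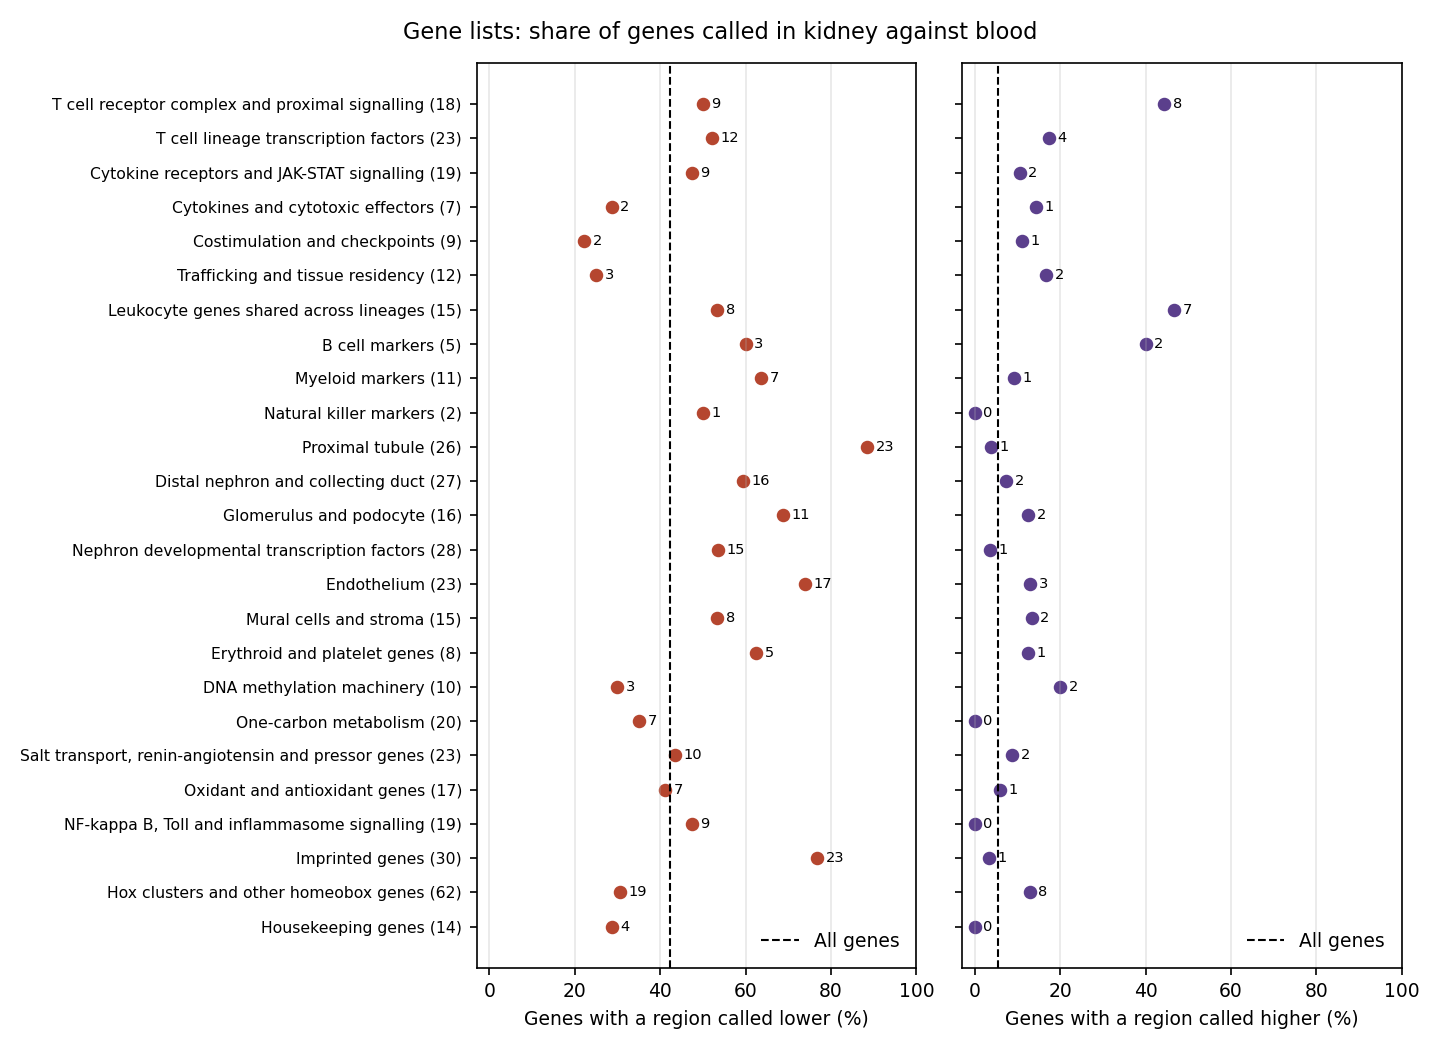
Share of genes (%) with a region called lower (left) and higher (right) in kidney for each of the 25 lists, with the number of genes that have a region in parentheses, the number called beside each point, and the share of all 7967 genes as a dashed line (42.3% lower, 5.38% higher). The proximal tubule, imprinted and endothelial lists lie right of the line on the left, and the lists of T cell receptor signalling, shared leukocyte genes and B cell markers on the right.

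MicroRNAs are short RNAs that silence messages matching their seed, bases 2 to 8. Of 104 microRNA genes with a region, 46 had one called lower (44.2%) and 7 one called higher (6.73%), both near the shares over all genes. Several share 1 region because their genes lie together. Mature sequences are given from RefSeq (GRCr8), with the seed in capitals, for the called regions with the largest loss, the largest gain and the most CpGs. They are given too for clusters and families whose members can be compared by seed. Several microRNA genes with larger differences than these families are not printed.
rno-miR-99b-5p: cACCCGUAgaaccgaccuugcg
rno-let-7e-5p: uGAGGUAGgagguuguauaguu
rno-miR-125a-5p: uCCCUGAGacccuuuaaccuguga
rno-miR-3065-5p: uCAACAAAaucacugaugcu
rno-miR-219a-5p: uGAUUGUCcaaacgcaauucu
rno-miR-6328: aGGCCUGCucugagcccccgc
rno-miR-141-3p: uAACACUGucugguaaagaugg
rno-miR-200c-3p: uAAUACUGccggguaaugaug
rno-miR-93-5p: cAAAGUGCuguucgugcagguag
rno-miR-106b-5p: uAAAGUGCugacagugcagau
rno-miR-196a-5p: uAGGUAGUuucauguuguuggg
rno-miR-196c-5p: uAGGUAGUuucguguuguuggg
The first group, Mir99b, Mirlet7e and Mir125a, lies in 1 cluster with 3 different seeds, and its region of 13 CpGs (chr1:60623856-60624047) was at 25.6% in kidney and 82.4% in blood. The region of Mir3065 (19 CpGs) was at 7.94% in kidney and 75.4% in blood, the largest loss among the microRNA genes. The region of Mir219-2 and Mir2964 (28 CpGs) was at 40% in kidney and 81.4% in blood. Mir3569 shares a region with Zbtb32 at 8.14% in kidney and 58.6% in blood, and Mir455 was at 30.6% in kidney and 78.6% in blood. The largest gain was a region of Mir6328 and Ppp1r18, at 27.4% in kidney and 0.544% in blood. Mir141 and Mir200c, of the family that marks epithelial cells, have different seeds and share a region at 56.5% in kidney and 77.4% in blood. Mir93 and Mir106b share the seed AAAGUGC and a region with Mir25, at 68.0% in kidney and 90.2% in blood. In the higher direction, Mir196a and Mir196c share the seed AGGUAGU and lie in different Hox clusters. The Mir196c region, in the Hoxb cluster, was at 31.7% in kidney and 7.73% in blood over 10 CpGs, and the Mir196a region at 16.8% in kidney and 5.38% in blood over 18 CpGs. By the q-value of the authors' deposited table, the regions of Mir455, of Mir141 and Mir200c, of Mir93 and Mir106b, and of Mir196a did not pass 0.05. They were called by the adjusted p. A region shared by Mir615 and Hoxc5 was at 16.0% in kidney and 5.17% in blood. It did not pass by the q-value either (0.0770), and the other regions of Mir615 had no call. Thus 3 of the 7 higher microRNA genes lie in Hox clusters. Mir10b and Mir196b lie there too and had no call. How many of the 104 microRNA genes lie in such clusters was not counted.

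The same comparison in the other 4 groups of rats, which share no pool with this one, gave the same direction at most called regions. As background, MCW HS had 21.7% of its regions lower and 2.98% higher. CRL LS had 20.5% lower and 1.99% higher, CRL HS had 24.6% lower and 2.61% higher, and the rats of 7 weeks had 19.1% lower and 1.99% higher. Of the regions called lower here and tested there, 72.0% were lower in MCW HS rats, 82.9% in CRL LS rats, 81.0% in CRL HS rats and 83.2% in the rats of 7 weeks, and between 10 and 31 were called the opposite way. Of those called higher here, 91.4%, 88.3%, 92.5% and 90.1% were called higher in the same 4 tables, and between 1 and 4 the opposite way. Tested in all 4, 5612 of 8639 lower regions (65.0%) and 531 of 650 higher regions (81.7%) were called the same way each time. Gene bodies had the highest share for losses, 70.6%, against 57.9% of TSS and 63.7% of Intergenic regions, and TSS regions the lowest for gains, 74.6%, against 82.4% of Intragenic and 83.9% of Intergenic regions.

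Regions with large differences in all 5 tables are given next. The Fgd3 start site was at 43.9%, 51.7%, 50%, 56.6% and 54.2% in kidney and at 0.776%, 1.06%, 0.672%, 0.776% and 0.917% in blood, where the order is MCW LS at 10 and then at 7 weeks, MCW HS, and then CRL fed LS and HS. In that order Dok2 was at 62.4%, 64.0%, 61.4%, 67.4% and 68.1% in kidney and at 19.4%, 20.3%, 19.0%, 19.1% and 20.0% in blood. Among losses Map3k14 was at 2.87%, 8.78%, 15.1%, 1.86% and 7.63% in kidney and at 90.8%, 88.0%, 88.0%, 90.7% and 86.5% in blood. These regions were chosen for a large difference in each of the 5 tables, so that kidney and blood lie apart by that choice. The kidney level of Map3k14 was highest in MCW HS. Runx1 showed the same order, at 6.17%, 11.2%, 23.6%, 3.81% and 9.25% in kidney and 93.3%, 92.9%, 92.1%, 92.7% and 94.3% in blood. Sulf2, an enzyme that edits heparan sulfate, was at 4.09%, 6.97%, 17.5%, 4.18% and 1.95% in kidney and at 91.0%, 91.1%, 92.1%, 81.0% and 78.7% in blood.

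The MCW HS group also had the highest kidney level over the whole set. At the 8639 regions called lower here and tested in all 5 tables, the median kidney level was 29.6% in MCW LS at 10 weeks, 36.4% at 7 weeks, 44.5% in the MCW HS group, 30.6% in the CRL LS group and 36.1% in the CRL HS group, while the median blood level stayed between 74.7% and 76.0%. In MCW HS the kidney level was above that of MCW LS at 10 weeks at 91.3% of these regions. The regions were chosen by their call in MCW LS at 10 weeks, which favours a low kidney level there. At the 650 higher regions the choice favours a high kidney level, and their median was 32.1% in kidney in MCW LS at 10 weeks, 36.5% at 7 weeks, 35.3% in the MCW HS group, 37.4% in the CRL LS group and 38.3% in the CRL HS group, with blood medians of 6.65% to 7.29%. No value per pool is at hand, so that these differences between groups could not be tested.

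**Figure D5:**
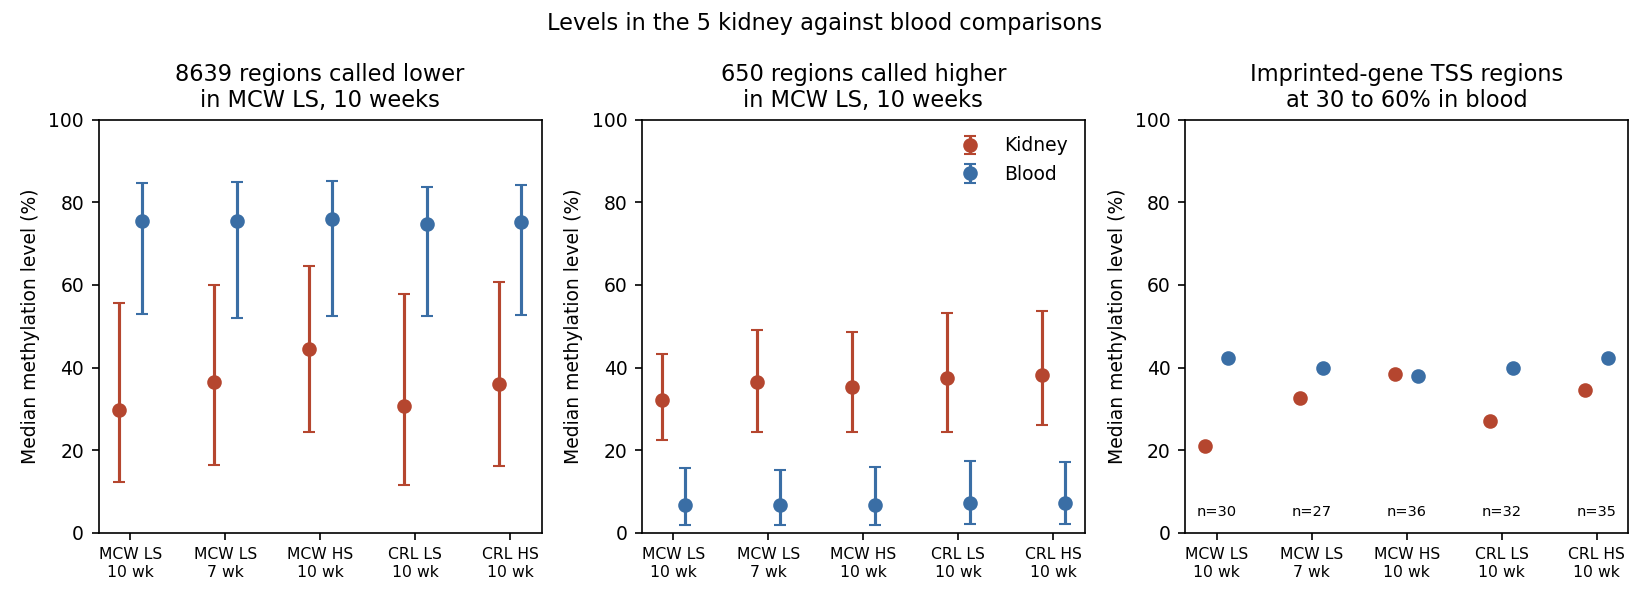
Median methylation level (%) in kidney (red) and blood (blue) in each of the 5 kidney and blood pairs of groups, for the regions called lower (left) and higher (middle) in MCW LS at 10 weeks and tested in all 5, with quartiles over regions as bars, and for imprinted-gene TSS regions at 30 to 60% in the blood of each table (right, n regions). Blood medians are level across the groups, and kidney medians of the lower set are highest in MCW HS, at 44.5%.

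The lists varied among the groups in different ways. The proximal tubule list had 74.1% of its genes lower in MCW HS, against 40.4% of all genes, and 79.2% in CRL LS, against 31.6%. It had 87.0% lower in CRL HS, against 41.2%, and 83.3% in the rats of 7 weeks, against 31.3%. Of the shared leukocyte genes, 40% were higher in MCW HS, against 7.87% of all genes, and 33.3% in CRL LS, against 4.31%. In CRL HS 38.9% were higher, against 6.34%, and in the rats of 7 weeks 30%, against 4.76%. Both shares thus exceeded the background in each of the 5 tables. Of the imprinted genes 44.8% were lower in MCW HS, near the background there. The shares were 62.5% for CRL LS, 70.0% for CRL HS and 51.6% for the rats of 7 weeks. At imprinted TSS regions at 30 to 60% in blood, the median was 38.4% in kidney and 38% in blood in MCW HS (36 regions, 2 called lower), against 21.0% in kidney and 42.4% in blood here. The medians were 27.1% in kidney and 40% in blood for CRL LS, 34.6% in kidney and 42.4% in blood for CRL HS, and 32.6% in kidney and 39.8% in blood for the rats of 7 weeks. Grb10, an imprinted adaptor of the insulin receptor, was at 20.4% in kidney and 55.8% in blood here, and at 48.1% in kidney and 52.2% in blood over 2 overlapping regions in MCW HS. Over all TSS regions in that range of blood levels, 54.9% were called lower in MCW HS.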

How the data were processed

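Reduced representation bisulfite libraries of kidney and blood T cells from 4 pools of 3 rats a group were prepared by MspI digestion and sequenced from both ends for 100 cycles, 13 or 14 to a lane, per the labels' protocols. No label names the lane of a library, so that lane and group cannot be told apart. Positions refer to rn5, per the submitters' processing notes. Which aligner and caller were used is not stated in those sources. The authors' deposited tables hold 1 methylation level per group as a fraction from 0 to 1 (given as a percent in the text), for regions of at least 5 CpGs set anew in each table. The authors computed for each region a difference of levels, Mann-Whitney and Kolmogorov-Smirnov p-values and a q-value, per the file headers, which do not state what counts as 1 observation. Recomputing Benjamini-Hochberg values from the Mann-Whitney column gave their adjusted p-value back (largest deviation 5.6e-16). The authors' difference departed from the difference of the 2 level columns by over 0.2 points in 3.47% of regions, and 4 called regions had level columns of the other sign.

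Levels and calls (adjusted p under 0.05, difference of at least 10 points) were summarised with Python 3.11.15, pandas 2.3.3, NumPy 2.4.6 and SciPy 1.17.1, and the counting was tested on simulated data. The table's class column holds the TSS, Intragenic and Intergenic classes, so that the planned split by island class and by position is 1 split. Gene symbols were updated with RefSeq names of assembly GRCr8 (7482 of 7977 current, 385 matched by 1 synonym). Regions of 2 tables were matched when sharing at least 1 bp. The members, the naming rule and the 25 gene lists were chosen with earlier results of these data known. The rule takes the largest differences by class and list, genes with most calls, regions called in all 5 tables, and a set of methyltransferase, Tet and T cell genes. Snx20, Mn1, the genes called in opposite directions at promoter and body, and the microRNAs were chosen after their values were seen.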

Additional observations from a re-analysis of the deposited data

How the results depend on the processing

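The direction of the comparison held under each alternative run, and the counts did not. With no minimum difference 22395 regions were called lower and 2535 higher, at 25 points 5966 and 343, at 50 points 2260 and 16, by the authors' q-value 2567 and 226, and over regions of at least 10 CpGs 1581 and 130. With an adjusted p under 0.01, the difference of the level columns, or the filter of 10% in 1 tissue, both counts stayed within 1.5 times, as they did with 1 region kept of each set of identical values, an alternative chosen after seeing the data. The mean difference was -9.40 points with regions weighted by CpGs and -9.10 over regions of at least 10 CpGs. By class, at 25 points, by the q-value and among regions with 10% in 1 tissue, the shares lower were 4.65%, 2.72% and 58.5% (TSS), 24.0%, 10.5% and 52.7% (Intragenic) and 16.2%, 6.39% and 48.9% (Intergenic), and the shares higher 0.330%, 0.267% and 6.10% (TSS), 1.44%, 0.894% and 4.71% (Intragenic) and 0.860%, 0.555% and 3.59% (Intergenic). The last filter removes almost only regions with no call, since a higher call needs 10% in kidney, and its shares say nothing of the order of the classes. The share called the same way in all 5 tables was 72.7% lower and 84.9% higher with a reciprocal overlap of 50% of both regions, and 80% lower and 90.6% higher with no minimum difference in the other tables. Of the 42 regions named by size, 34 passed the q-value, and 0 turned in sign, which a change of p-value cannot alter. Among those that did not pass were the start sites of Cd37 (0.450), Etv3 and Kdf1, and the largest gain of all (chr4:165652586-165652749, 0.0810). Many regions named from the gene lists are outside those 42. Among them Cd247, Cd8a, Kcna3, Ubash3a, Il4, Socs3, Itgae and S1pr4 did not pass the q-value, whereas Lat, Lta and Klf2 did. Of the genes called in opposite directions, the start sites of Foxo3 and Map4k1 did not pass, whereas their body regions did. Both regions of Itgal, and the second TSS region and the body region of Dnmt3a, did not pass either. The q-value is a stricter and different test: of 50 list counts 11 stayed within 1.5 times under it and 27 at 25 points. No paired analysis was possible because the tables hold group levels only and no value per pool, and leaving out a pool was not possible for the same reason. Depth is unknown, so that a level of 0% carries no limit.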

Other observations

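Ribosomal RNA genes, present in many copies, were among the most often called. Regions named Rn5-8s (69 of 132 lower) had a median of 11.1% in kidney and 21.2% in blood, and those named Rn45s (22 of 34 lower) 10.5% in kidney and 22.7% in blood. The uncharacterised LOC310926 had 56 of 92 lower, with a median of 9.76% in kidney and 22.1% in blood. In all, 1525 regions in 715 sets had every value identical to another region, of which 451 were called lower and 20 higher, so that such regions count 1 measurement several times.

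By chromosome the share called lower ran from 23.9% (chromosome 8) and 24.9% (X) to 34.3% (chromosome 20), and the share higher from 1.06% (X) to 3.40% (chromosome 20).

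Wnt5a, a secreted signal of development, had 4 of 9 regions higher and 0 lower, with a median of 11.0% in kidney and 2.91% in blood. Gas2l1, a cytoskeletal linker, had 5 of 15 higher and 2 lower. Complement gene C4a had 16 of 36 lower, with a median of 13.5% in kidney and 27.3% in blood, and is uncertain since near-identical copies of this gene can share reads.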
